A study of Mus musculus with 10 samples.

Results

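The Hox genes of the mouse were followed in 10 RNA-seq libraries from mesenchymal breast cancer cell lines. Members were the rows of the count table whose gene symbol was Hoxa, Hoxb, Hoxc or Hoxd followed by a number, which gave 20 genes of 18103 in all. Of the 39 Hox genes annotated in the RefSeq set for GRCm38.p6, the table held 9 of 11 in the Hoxa cluster on chromosome 6, 7 of 10 in Hoxb on chromosome 11, 3 of 9 in Hoxc on chromosome 15 and 1 of 9 in Hoxd on chromosome 2. The others were not analysed here.

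The study asked how epithelial cancer cells that have become mesenchymal respond to agents used to turn them into fat cells. Py2T-LT is the long-term mesenchymal form of Py2T, a line from a mammary tumour of a mouse carrying the polyoma middle T oncogene, and MTΔECad is a mesenchymal mammary tumour line in which the E-cadherin gene Cdh1 was deleted. Cells were collected at day 7 in 5 groups of 2 libraries. These were Py2T-LT control cells, Py2T-LT cells with a MEK inhibitor, Py2T-LT cells with both BMP2 and that inhibitor, MTΔECad control cells, and MTΔECad cells with rosiglitazone, an agonist of the fat cell regulator PPARγ. The protocol's usual doses were 40 µM for the MEK inhibitor PD98059, 200 ng/ml for BMP2 and 2 µM for rosiglitazone, with DMSO medium for controls. The sample labels gave no dose, and whether the Py2T-LT medium held rosiglitazone was not given. Each line is a single cell line, so a difference between the lines is a difference between these cultures. The 2 libraries of a group came from independent experiments. The p-values measure the spread between libraries of the same group, estimated over all 5 groups together and with information shared across genes.

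Hox proteins are homeodomain transcription factors that give cells their address along the head-to-tail axis of the embryo. Within each cluster, low-numbered genes lie at the 3′ end and are active in anterior regions, while high-numbered genes lie at the 5′ end and act more posteriorly, and genes with the same number in different clusters are paralogues. Adult cells and cell lines often keep the Hox pattern of their origin, and cofactors of the TALE class such as Pbx and Meis proteins bind DNA together with Hox proteins. Here numbers 1 to 3 are called anterior, 4 to 8 central and 9 to 13 posterior.

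Library totals ranged from 14659987 to 17249199 counts, so 1 count was worth at most 0.0696 CPM (counts scaled to library size by TMM), and the floor of 3 counts used for genes at 0 was worth at most 0.209 CPM. The 2 Py2T-LT control libraries differed more than the libraries of the other groups, with a mean chi-square per gene of 17.2 against 5.5 to 7.9. Kmt2a, for example, a gene singled out after its values were seen, stood at 78.7 and 188 CPM in them. Counts of called genes that moved without Py2T-LT control replicate 2 are therefore given without it as well. Mesenchymal markers summed to between 9329 and 12040 CPM in the Py2T-LT libraries and between 15251 and 20550 CPM in the MTΔECad libraries. Between the control groups 8 of 10 mesenchymal markers were higher and 0 lower in MTΔECad cells, and of 8 tested epithelial markers 0 were higher and 5 lower. Cdh1 had 36.0 and 31.7 CPM in the libraries of Py2T-LT controls but 2.57 and 2.25 CPM in those of MTΔECad controls, and counts per gene do not tell which exons they came from. Among the epithelial markers, Esrp1 was at 0 in 4 of the 5 groups. The part of this difference between the lines in the Hox results was not tested. Blood and vessel markers summed to at most 2.00 and 1.56 CPM in any library.

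Promoter windows of 4 Hox genes are shown because these genes took the 3 patterns found below. Hoxa5 and Hoxa7 were higher in MTΔECad than in Py2T-LT cells, Hoxa9 had no count in any library, and Hoxb4 was at similar levels in both lines. Each window holds 250 bases before and 50 after the RefSeq start of transcription (GRCm38.p6), and capitals mark the hexamer AGGTCA, or TGACCT on the other strand, which retinoic acid receptors bind. The windows are, for Hoxa5, chr6:52204538-52204837 on the minus strand, for Hoxa7, chr6:52218524-52218823 on the minus strand, for Hoxa9, chr6:52227321-52227620 on the minus strand, and for Hoxb4, chr11:96318017-96318316 on the plus strand.
Hoxa5: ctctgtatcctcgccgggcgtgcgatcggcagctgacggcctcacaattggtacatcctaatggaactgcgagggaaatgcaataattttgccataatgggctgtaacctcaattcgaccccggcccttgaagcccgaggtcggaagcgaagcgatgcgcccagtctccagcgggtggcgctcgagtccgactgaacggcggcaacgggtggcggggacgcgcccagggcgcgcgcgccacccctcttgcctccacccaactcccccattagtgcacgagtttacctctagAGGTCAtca
Hoxa7: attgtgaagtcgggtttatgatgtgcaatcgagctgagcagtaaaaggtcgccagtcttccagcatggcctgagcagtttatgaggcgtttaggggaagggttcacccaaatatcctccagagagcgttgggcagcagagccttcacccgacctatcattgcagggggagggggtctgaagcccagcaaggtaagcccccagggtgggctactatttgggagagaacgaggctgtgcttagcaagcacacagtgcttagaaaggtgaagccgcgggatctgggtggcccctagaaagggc
Hoxa9: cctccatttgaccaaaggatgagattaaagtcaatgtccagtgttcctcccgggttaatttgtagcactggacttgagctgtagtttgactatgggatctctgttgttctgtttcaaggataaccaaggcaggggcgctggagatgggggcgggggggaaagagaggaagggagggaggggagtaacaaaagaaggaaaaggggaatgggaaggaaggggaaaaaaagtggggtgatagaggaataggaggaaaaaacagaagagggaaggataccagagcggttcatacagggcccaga
Hoxb4: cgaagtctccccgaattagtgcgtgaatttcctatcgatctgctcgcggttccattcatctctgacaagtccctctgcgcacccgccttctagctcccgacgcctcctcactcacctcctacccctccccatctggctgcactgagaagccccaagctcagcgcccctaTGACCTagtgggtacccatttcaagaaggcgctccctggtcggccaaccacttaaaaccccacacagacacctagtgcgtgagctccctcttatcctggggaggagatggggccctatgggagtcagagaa

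The hexamer was found in the Hoxa5 and Hoxb4 windows and in neither of the others. Windows were held for 11 of the 20 members, and 4 of these 11 genes had the hexamer (Hoxa5, Hoxb4, Hoxc4 and Hoxd10), against 16.3% of the 32851 windows of all genes. Motifs were searched on both strands. TGATNNAT, a Pbx-Hox composite site in which N is any base, was found in 2 of the 11 genes (Hoxa2 and Hoxb8) and in 8.85% of all windows. TATAAA was found in 2 (Hoxa10 and Hoxb8) and in 13.6% of all windows. CG dinucleotides numbered 29 in the Hoxa5 window, 14 in Hoxb4, 9 in Hoxa7 and 4 in Hoxa9, against a median of 7 over all windows and quartiles of 3 and 20. A match describes the letters in the window and says nothing of binding.

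Among the Hox genes in the table, those at 1 CPM or more in both libraries of a group were anterior and central genes. The table held 3 posterior genes, Hoxa9, Hoxa10 and Hoxd10. In Hoxb, Hoxb2, Hoxb3 and Hoxb4 were expressed in every library, while Hoxb5, Hoxb6, Hoxb7 and Hoxb8 together gave 11 counts over the 10 libraries. In Hoxa, MTΔECad cells expressed Hoxa2 to Hoxa7 above 1 CPM, and Hoxa9 and Hoxa10 gave 0 and 4 counts in all. Hoxc4, Hoxc5 and Hoxc6 gave 2, 1 and 1 counts over the 10 libraries, and Hoxd10 gave 1. At 1 CPM or more in both libraries stood 5 Hox genes in Py2T-LT controls, 4 with the MEK inhibitor, 5 with the combination of BMP2 and that inhibitor, and all 10 tested Hox genes in each MTΔECad group. Fewer cells that express a gene and less RNA per cell cannot be told apart in bulk RNA.

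**Figure D1:**
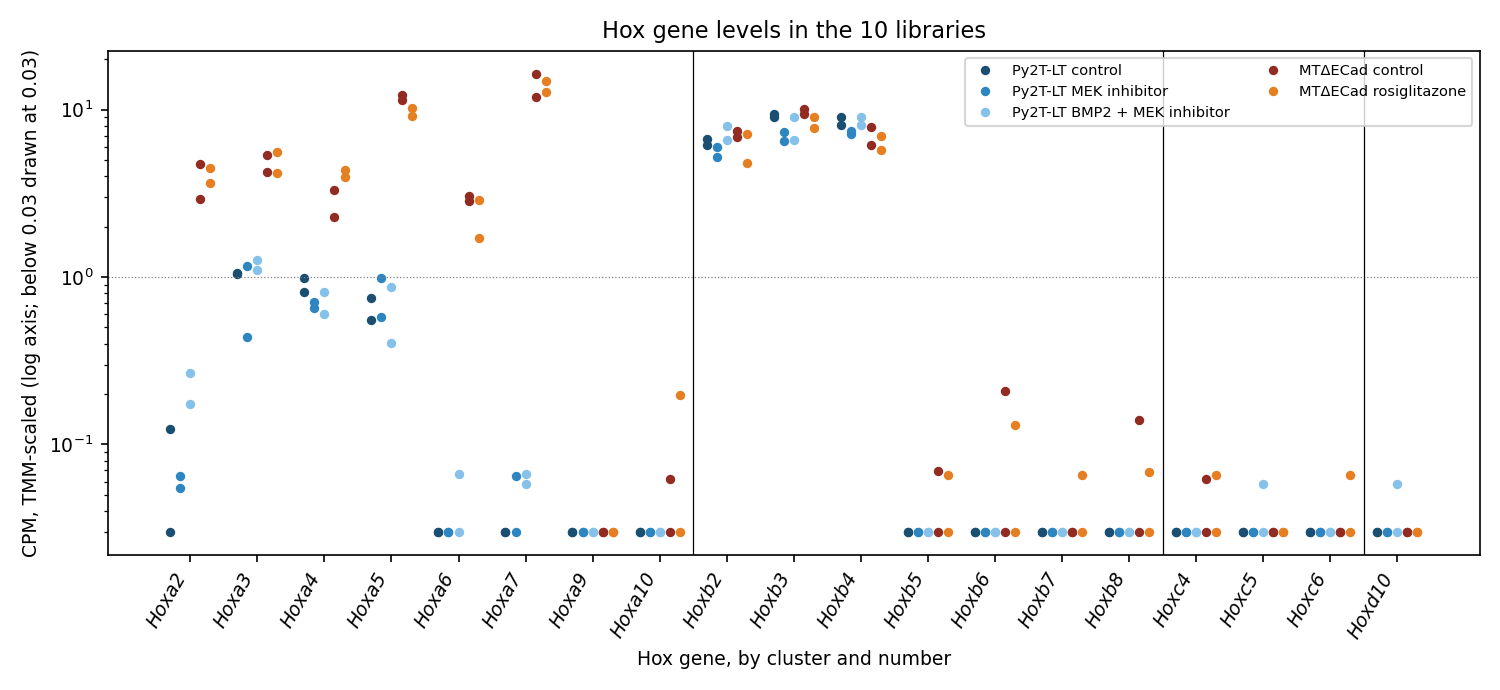
CPM of the Hox genes described, in the 10 libraries (y, log axis; x, genes by cluster and number; each point is 1 library, coloured by group; the dotted line marks 1 CPM). Hoxa2 to Hoxa7 lie higher in the 4 MTΔECad libraries than in the 6 Py2T-LT libraries, Hoxb2 to Hoxb4 overlap, and the 10 genes that were not tested lie at 0 or within 3 counts of it.

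Between the lines, the anterior and central genes Hoxa2 to Hoxa7 differed and the expressed Hoxb genes were not called. Hoxa2, Hoxa3, Hoxa4, Hoxa5, Hoxa6 and Hoxa7 were higher in MTΔECad than in Py2T-LT controls (6 of 10 tested Hox genes, edgeR quasi-likelihood test with Benjamini-Hochberg adjustment over 13149 genes, adjusted p under 0.05), and no Hox gene was lower. Over all genes tested, 29.3% were called higher and 31.7% lower, so many genes differed between the lines. Hoxa2, Hoxa6 and Hoxa7 passed the filter on low counts through the MTΔECad libraries alone and had to differ, so the count of 6 of 10 is a description. The count of 6 was the same without Py2T-LT control replicate 2.

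Hoxa7, a central gene that patterns the trunk skeleton in the mouse, gave 236 and 191 counts in MTΔECad controls and 225 and 185 with rosiglitazone, but 0 and 0 in Py2T-LT controls, 1 and 0 with the MEK inhibitor, and 1 and 1 with BMP2 and the MEK inhibitor. The groups of the lines lay far apart, and the level in MTΔECad controls was at least 76.2-fold higher, measured against a floor of 3 counts per library.

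Hoxa6, the next gene toward the 3′ end, gave 41 and 49 counts in MTΔECad controls and 44 and 25 with rosiglitazone. In the 6 Py2T-LT libraries it gave 1 count in all, in a library with BMP2 and the MEK inhibitor. MTΔECad controls were at least 15.9-fold higher by the same floor.

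Hoxa5, known for roles in lung and mammary gland development and lost in many breast tumours, gave 165 and 195 counts in MTΔECad controls and 139 and 148 with rosiglitazone. In Py2T-LT cells it gave 9 and 12 counts in controls, 9 and 18 with the MEK inhibitor, and 6 and 15 with BMP2 and the MEK inhibitor. Py2T-LT cells thus held a low level of this gene in every library, unlike Hoxa6 and Hoxa7. The difference between control cells was a log2 fold change of 4.17 ± 0.28 (SE; edgeR adjusted p = 3.1e-11), from 0.652 ± 0.138 to 11.8 ± 0.51 CPM (SD, n = 2 each).

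Hoxa4 gave 33 and 53 counts in MTΔECad controls, 67 and 58 with rosiglitazone, and 9 to 16 counts in each Py2T-LT library. This was the smallest called difference among the Hox genes, a log2 fold change of 1.64 ± 0.32 (SE; edgeR adjusted p = 0.00017). Of its exon bases, 16.0% are shared with the opposite-strand gene Gm29430 in GENCODE M21. The counter's use of strand was not given, so reads of these genes cannot be told apart. Likewise 267 exon bases of Hoxa2 are shared with Gm28308 on the same strand, and Hoxa3 shares 4.9% to 8.4% with each of 5 other genes.

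Hoxa3, which patterns the pharyngeal arches, gave 77 and 68 counts in MTΔECad controls and 85 and 61 with rosiglitazone. Its 6 Py2T-LT libraries gave between 8 and 19 counts. The levels in control cells were 1.05 ± 0.01 CPM and 4.81 ± 0.78 CPM (SD, n = 2 each), a log2 fold change of 2.18 ± 0.32 (SE; edgeR adjusted p = 5.1e-06).

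Hoxa2, which sets the identity of the second pharyngeal arch and of hindbrain segments, gave 68 and 47 counts in MTΔECad controls and 56 and 65 with rosiglitazone. In Py2T-LT cells it gave 2 and 0 counts in controls, 1 and 1 with the MEK inhibitor, and 4 and 3 with BMP2 and the MEK inhibitor. MTΔECad controls had 61.1 times the level of Py2T-LT controls (95% counting interval 16.5 to 510), which rests on 2 counts. The fitted log2 fold change was 5.77 ± 0.58 (SE), 8.91 without Py2T-LT control replicate 1 and 4.86 without replicate 2.

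In Hoxb, Hoxb2 gave 109 and 98 counts in Py2T-LT controls and 107 and 110 in MTΔECad controls. Hoxb3 gave 147 and 150 counts in Py2T-LT controls and 146 and 150 in MTΔECad controls. Hoxb4, a factor used to expand blood stem cells in culture, gave 131 and 145 counts in Py2T-LT controls and 89 and 126 in MTΔECad controls. The intervals of the log2 difference between the lines were -0.24 to 0.56 for Hoxb2, -0.26 to 0.43 for Hoxb3 and -0.63 to 0.08 for Hoxb4. All 3 intervals held 0, while Hoxa3, the paralogue of Hoxb3, and Hoxa4, the paralogue of Hoxb4, were called. The difference between paralogues was not tested. By exon bases, 52.9% of Hoxb3 and 27.3% of Hoxb2 overlap the opposite-strand gene Hoxb3os, so part of their counts may belong to it.

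Across treatments as well as lines, the 4 MTΔECad libraries all lay above the 6 Py2T-LT libraries for Hoxa2 to Hoxa7, which is 6 of 10 tested genes. Over all genes tested, 23.2% did so. Since Hoxa2, Hoxa6 and Hoxa7 passed the filter through the MTΔECad libraries alone, nothing is read from the count against this share. For Hoxa5 the ranges were 9.11 to 12.2 CPM in MTΔECad and 0.402 to 0.986 CPM in Py2T-LT libraries. For Hoxa4, with the narrowest gap, they were 2.30 to 4.39 CPM and 0.602 to 0.985 CPM.

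The order of levels within a line can be read only per length, so RPKM was computed from the union of exons. In Py2T-LT controls Hoxb4 came first with 3.34 ± 0.27 RPKM (SD, n = 2), then Hoxb3 with 2.17 ± 0.05 and Hoxb2 with 1.84 ± 0.12 RPKM. The 2 libraries of each of these genes did not overlap with those of its neighbour in the order. Hoxa4 was lower than these with 0.564 ± 0.077 RPKM, and Hoxa5 and Hoxa3 were lower still, with 0.347 ± 0.074 and 0.175 ± 0.002 RPKM. With the longest transcript as the length, Hoxa3 stood at 0.407 RPKM, above Hoxa5 at 0.347, so the order of Hoxa3 and Hoxa5 depends on the length used.

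In MTΔECad controls the order began with the central Hoxa genes. Hoxa5 stood at 6.31 ± 0.27, Hoxa7 at 4.93 ± 1.10 and Hoxa6 at 3.39 ± 0.17 RPKM (SD, n = 2 each). Hoxb4 stood at 2.74 ± 0.47, Hoxb3 at 2.30 ± 0.13, Hoxa2 at 2.16 ± 0.71, Hoxb2 at 2.05 ± 0.11 and Hoxa4 at 1.76 ± 0.45 RPKM. The libraries of Hoxa2 ranged from 1.66 to 2.67 RPKM and overlapped with those of Hoxb4, Hoxb3, Hoxb2 and Hoxa4, so the order among these was not resolved. Hoxa3 was lower than these with 0.799 ± 0.130 RPKM. With the longest transcript as the length in place of the exon union, Hoxa7 stood at 6.99 RPKM, above Hoxa5 at 6.31. Hoxb3 then stood at 3.06 RPKM, above Hoxb4, and Hoxa3 at 1.86 RPKM, above Hoxa4 at 1.76. The order within each of these pairs thus depends on the length used.

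**Figure D2:**
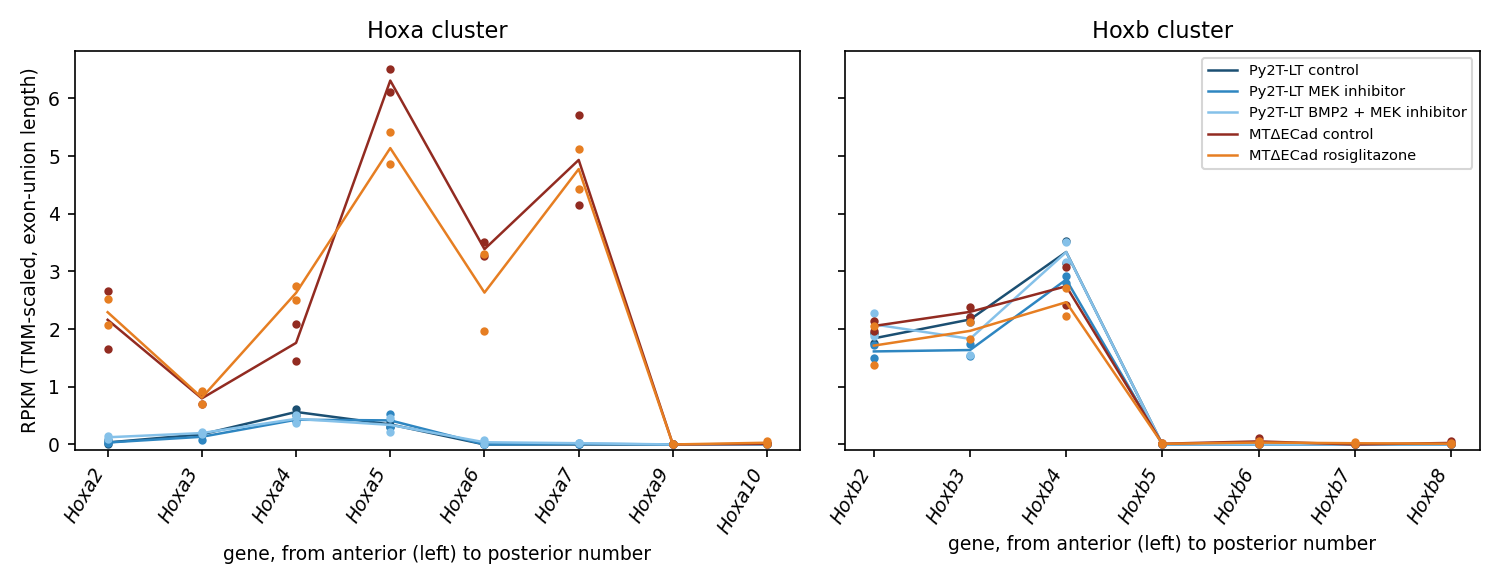
RPKM (y) of the Hoxa and Hoxb genes described, ordered from the anterior to the posterior number (x); points are libraries, lines join group means and colours mark the 5 groups. In Hoxa the MTΔECad groups rise to Hoxa5 and Hoxa7 and end before Hoxa9, while in Hoxb all groups run close together and end after Hoxb4.

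Summed over the 4 central Hoxa genes, MTΔECad controls held 33.0 and 30.5 CPM and Py2T-LT controls 1.54 and 1.56 CPM. Over the Hoxb genes the sums were 24.2 and 24.1 CPM against 23.8 and 24.6 CPM. The lines thus lay far apart in the central Hoxa genes and close together in the sum over Hoxb.

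The table also held non-coding genes inside the Hoxa cluster. Mira, a long non-coding RNA transcribed between Hoxa6 and Hoxa7, gave 203 and 268 counts in MTΔECad controls and 239 and 229 with rosiglitazone. In Py2T-LT controls it gave 0 and 0 counts, with the MEK inhibitor 2 and 0, and with the combination 1 and 2 counts. The level in MTΔECad controls was at least 83.0-fold higher by the same floor, and all 4 MTΔECad libraries lay above all 6 Py2T-LT libraries, as for Hoxa6 and Hoxa7. Like them, Mira passed the filter on low counts through the MTΔECad libraries alone and had to differ. Hotairm1, a non-coding RNA of the cluster that retinoic acid induces in myeloid cells, gave 21 to 31 counts in every library, and its log2 difference between the lines was -0.06 ± 0.32 (SE; edgeR adjusted p = 0.89).

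Hoxaas3, which overlaps 20.4% of the exon bases of Hoxa7 on the opposite strand, gave 0 counts in all 6 Py2T-LT libraries, 3 and 5 in MTΔECad controls, and 13 and 2 with rosiglitazone. Hoxaas2 gave 6 to 9 counts in each Py2T-LT library and 0 to 3 in each MTΔECad library, so its groups did not overlap and the MTΔECad libraries were the lower ones. Hoxaas2 and Hoxaas3 were not tested, since both fell under the filter on low counts. In Hoxb, Hoxb5os was at 0 in every library.

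The nearest genes outside the clusters were read as well, 3 rows on each side of each cluster, of which 21 of 24 were tested. Between the lines 5 were higher and 6 lower (5 and 5 without Py2T-LT control replicate 2), against 29.3% and 31.7% of all genes. Only Ttll6, a tubulin polyglutamylase gene 28134 bases from the cluster on the side of the high-numbered Hoxb genes, Skap1, 96316 bases away on the other side, and Hnrnpa3 differed beyond 1 on the log2 scale. Ttll6 gave 1 and 0 counts in Py2T-LT controls and 13 and 25 in MTΔECad controls, which is 40.4 times the level (95% counting interval 6.82 to 1640; edgeR adjusted p = 7.2e-05). Ttll6 passed the filter on low counts through the MTΔECad libraries alone and had to differ. The counts of 5 higher and 6 lower hold Ttll6 and Skap1 and are a description. Skap1 gave 12 and 15 counts against 2 and 4, a log2 fold change of -2.04 ± 0.63 (SE; edgeR adjusted p = 0.008). It passed the filter on low counts through the Py2T-LT control libraries alone, so nothing is read from its call. It was still called under 6 of 9 alternatives, but not with DESeq2 nor without Py2T-LT control replicate 2 or MTΔECad control replicate 1. Hnrnpa3, 893963 bases from Hoxd, went from 27.6 and 30.9 to 16.5 and 11.5 CPM and fell by 1.07 ± 0.15 (SE) on the log2 scale (edgeR adjusted p = 4.4e-06). Skap2 and Hibadh were the nearest rows on either side of Hoxa, and Skap2 was not called. Hibadh was higher in MTΔECad controls, the direction of Hoxa2 to Hoxa7, by 0.48 ± 0.08 (SE) on the log2 scale (edgeR adjusted p = 4.9e-05). Whether these rows differed from the Hoxa genes was not tested.

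The treatments changed no Hox gene at the threshold. In all 4 comparisons the edgeR test called 0 of 10 tested Hox genes in either direction, and DESeq2 also called 0. At an unadjusted p under 0.05 stood 1 gene with the MEK inhibitor, 0 with BMP2 and the MEK inhibitor against control, 1 against the MEK inhibitor alone, and 1 with rosiglitazone. The treatments did act on the cells: all 6 adipocyte markers rose with the MEK inhibitor and with the combination against Py2T-LT controls, and 4 of 6 rose with rosiglitazone. Adipoq, the gene of the fat cell hormone adiponectin, went from 1 and 0 counts in MTΔECad controls to 1548 and 1309 with rosiglitazone.

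With the MEK inhibitor, 8.98% of all genes tested rose and 7.52% fell. Hoxb3 came nearest to a call. It stood at 9.05 and 9.37 CPM in controls and at 6.52 and 7.39 CPM with the inhibitor, with a log2 fold change of -0.40 ± 0.17 (SE; edgeR adjusted p = 0.12). For Hoxb2 and Hoxb4 the 95% intervals of the log2 fold change were -0.59 to 0.22 and -0.57 to 0.13. For Hoxa5 the interval, -0.61 to 1.19, was wider, since the gene gave 9 to 18 counts in these libraries.

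With BMP2 and the MEK inhibitor against control, 19.1% of all genes rose and 19.4% fell. Hoxb4 stood at 8.07 and 9.06 CPM in controls and at 8.10 and 9.01 CPM with the combination, and its 95% interval was -0.34 to 0.35 on the log2 scale. Hoxb3 stood at 6.56 and 9.01 CPM with the combination, and its interval was -0.59 to 0.12. Hoxa2 gave 2 and 0 counts in controls and 4 and 3 with the combination, too few for a statement.

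Against the MEK inhibitor alone, 17.9% of all genes rose and 19.4% fell with the combination. This comparison shares libraries with both before it, which in turn share the Py2T-LT controls with the comparison of the lines. For Hoxb2, Hoxb3 and Hoxb4 the 95% intervals of the log2 fold change were -0.03 to 0.77, -0.20 to 0.53 and -0.13 to 0.57. That of Hoxa5 was -1.19 to 0.61. The Hox median was 0.49, against 0.005 over all genes. Against control it was -0.20 with the MEK inhibitor and 0.17 with the combination, against 0.011 and 0.002 over all genes. Hoxa2, Hoxa6 and Hoxa7, which are in these medians, gave 0 to 4 counts in each Py2T-LT library.

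In MTΔECad cells all 10 tested Hox genes stood at 1 CPM or more. With rosiglitazone 7.95% of all genes rose and 5.26% fell, and the Hox median was -0.10, against -0.02 over all genes. Hoxa4 came nearest to a call. It stood at 2.30 and 3.32 CPM in controls and at 4.39 and 3.99 CPM with rosiglitazone, and its log2 fold change was 0.57 ± 0.25 (SE; edgeR adjusted p = 0.16). Hoxa7 stood at 16.4 and 11.95 CPM in controls and at 14.7 and 12.7 CPM with rosiglitazone, with an interval of -0.41 to 0.33 on the log2 scale. For Hoxa5 the interval was -0.68 to 0.08 and for Hoxb3 -0.58 to 0.13. That of Hoxa6, with 25 to 49 counts a library, was wider, at -1.02 to 0.31.

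**Figure D3:**
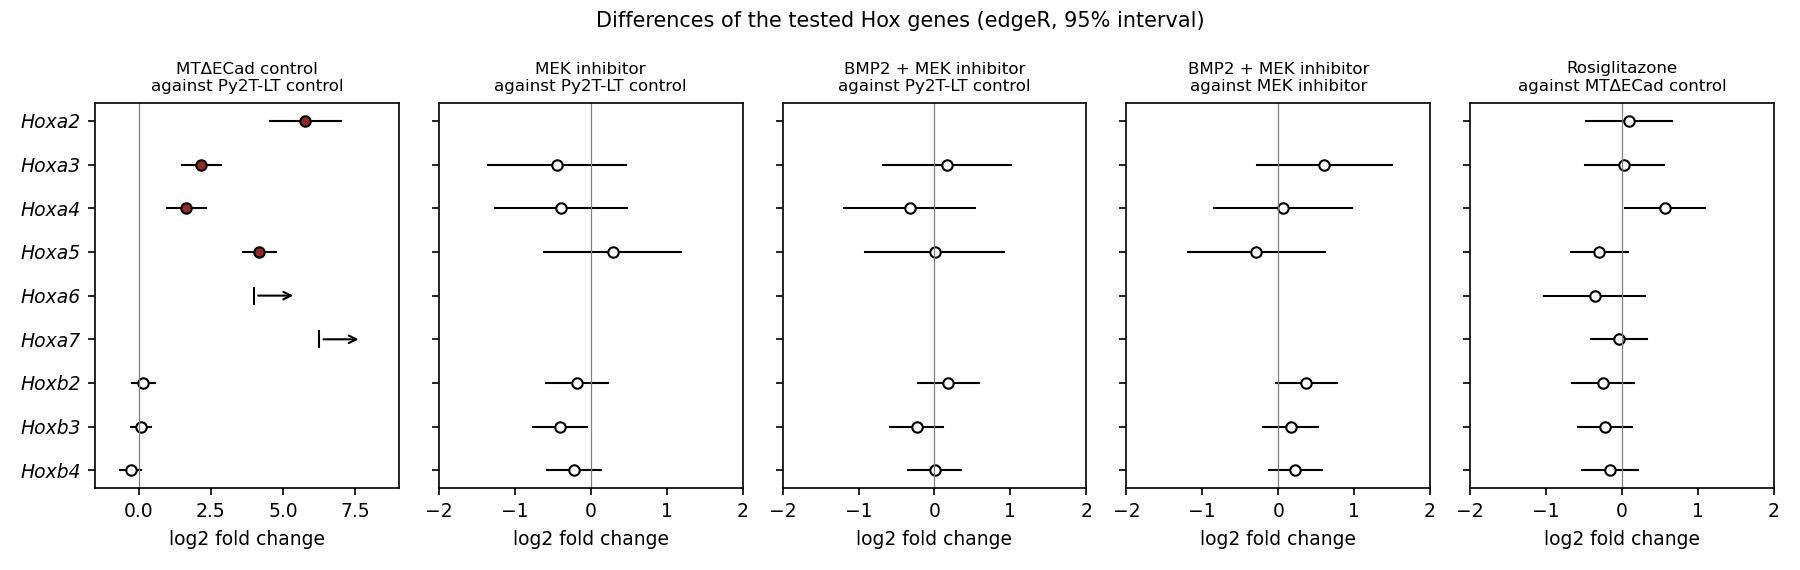
Log2 fold change (x) of 9 tested Hox genes (y) in the 5 comparisons; points are edgeR estimates, bars 95% intervals, and filled points had an adjusted p under 0.05. Arrows for Hoxa6 and Hoxa7, also called, start at the lower bounds of 15.9-fold and 76.2-fold, and Hoxa2, Hoxa6 and Hoxa7, with 0 to 4 counts a library, are left out of the Py2T-LT treatment panels; no point in the 4 treatment panels is filled. The first panel, of the lines, has a wider x scale.

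All 9 TALE cofactors were tested. Between the lines 2 were higher in MTΔECad cells (Pbx2 and Meis3), 3 were lower, Meis1 and Meis2 among them, and 4 were not called, with a median log2 fold change of 0.09 against -0.03 over all genes tested and against shares of 29.3% higher and 31.7% lower. Meis3 differed most. It gave 10 and 5 counts in Py2T-LT controls and 280 and 264 in MTΔECad controls, or 0.464 ± 0.215 and 18.0 ± 2.09 CPM (SD, n = 2 each), a log2 fold change of 5.25 ± 0.26 (SE; edgeR adjusted p = 2.2e-13).

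With BMP2 and the MEK inhibitor 4 rose against control (Pbx4, Meis2, Meis3 and Pknox2) and 2 fell, Pbx3 among them, and without Py2T-LT control replicate 2 these counts were 2 and 1. Of all genes, 19.1% rose and 19.4% fell in this comparison. Pbx4 was still called under 3 of 9 alternatives and Pknox2 under 5 of 9, and DESeq2 called neither. Meis3 went from 0.616 and 0.312 CPM in controls to 1.54 and 1.74 CPM with the combination, a log2 fold change of 1.81 ± 0.38 (SE; edgeR adjusted p = 0.00066), and stayed far below MTΔECad cells. Meis2 went from 12.7 and 15.1 to 24.97 and 27.3 CPM and rose by 0.91 ± 0.13 (SE) on the log2 scale with the combination (edgeR adjusted p = 5.9e-06). With the MEK inhibitor alone 1 cofactor rose (Meis2) and 2 fell, Pbx3 among them. Pbx3 was still called under 4 of 9 alternatives, but not with DESeq2 nor with any 1 control or MEK inhibitor library left out. With the combination against the MEK inhibitor 3 rose (Meis2, Meis3 and Pknox2) and 0 fell. With rosiglitazone 1 rose and 0 fell: Pknox2 went from 0.557 and 0.501 CPM to 1.77 and 1.93 CPM (log2 fold change 1.79 ± 0.45 SE, edgeR adjusted p = 0.0087). This call was lost with DESeq2 and without either MTΔECad control library.

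Of 15 genes that act upstream of Hox genes in embryos (retinoic acid receptors and enzymes, Egr2, Gdf11 and others), 14 were rows and 10 were tested. Between the lines 0 were higher and 6 lower in MTΔECad cells, among them Rarg, Cyp26b1, Gdf11, Nr6a1 and Lin28b, with a median log2 fold change of -0.63, against 29.3% and 31.7% of all genes. Lin28b, an RNA-binding protein that blocks the microRNA let-7, gave 108 and 137 counts in Py2T-LT controls and 0 in all 4 MTΔECad libraries, at least 38.4-fold lower (edgeR adjusted p = 1e-10). It passed the filter on low counts through the Py2T-LT libraries alone and had to differ, so nothing is read from its call. The count of 6 lower holds Lin28b and is a description. Gdf11, a signal for posterior Hox genes in the embryo, fell from 39.4 and 39.6 CPM to 13.3 and 13.5 CPM, by 1.56 ± 0.12 (SE) on the log2 scale (edgeR adjusted p = 5.3e-10).

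Rarb, a retinoic acid receptor gene that is itself a retinoic acid target, gave 166 and 178 counts in Py2T-LT controls, 52 and 41 with the MEK inhibitor, and 2 and 0 with BMP2 and the MEK inhibitor. The combination was thus 171-fold below control (95% counting interval 47.1 to 1420; edgeR adjusted p = 1.2e-11), which rests on 2 counts in 1 library. The fitted log2 fold change of Rarb ranged from -10.41 to -6.23 over the 9 alternatives. Rarb also fell with rosiglitazone, from 12.8 and 11.8 CPM to 4.33 and 3.99 CPM, by 1.56 ± 0.20 (SE) on the log2 scale (edgeR adjusted p = 6.8e-06). Cyp26b1, an enzyme that breaks down retinoic acid, rose with the combination from 4.68 and 5.87 CPM to 33.5 and 35.9 CPM, a log2 fold change of 2.72 ± 0.15 (SE; edgeR adjusted p = 4.7e-12). With rosiglitazone it rose from 1.67 and 1.75 CPM to 5.70 and 5.36 CPM, by 1.69 ± 0.22 (SE) on the log2 scale (edgeR adjusted p = 1e-05). With the MEK inhibitor alone Cyp26b1 was not called (log2 fold change -0.45 ± 0.19 SE, edgeR adjusted p = 0.12). Rara, another retinoic acid receptor gene, went from 49.1 and 47.1 CPM in Py2T-LT controls to 61.8 and 75.4 CPM with the combination and rose by 0.51 ± 0.11 (SE) on the log2 scale (edgeR adjusted p = 0.00075). Hotairm1 was not called in any of these comparisons.

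Egr2, which sets up Hox expression in hindbrain segments, fell with the combination from 11.8 and 10.9 CPM to 2.41 and 3.14 CPM, by 2.02 ± 0.25 (SE) on the log2 scale (edgeR adjusted p = 5.7e-06). In all, the upstream list had 1 gene higher and 3 lower with the MEK inhibitor, 4 and 3 with the combination against control, 4 and 3 against the MEK inhibitor, and 1 and 2 with rosiglitazone. Of the ParaHox genes, relatives of the Hox genes in a cluster of their own, 2 were rows and 0 could be tested.

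**Figure D4:**
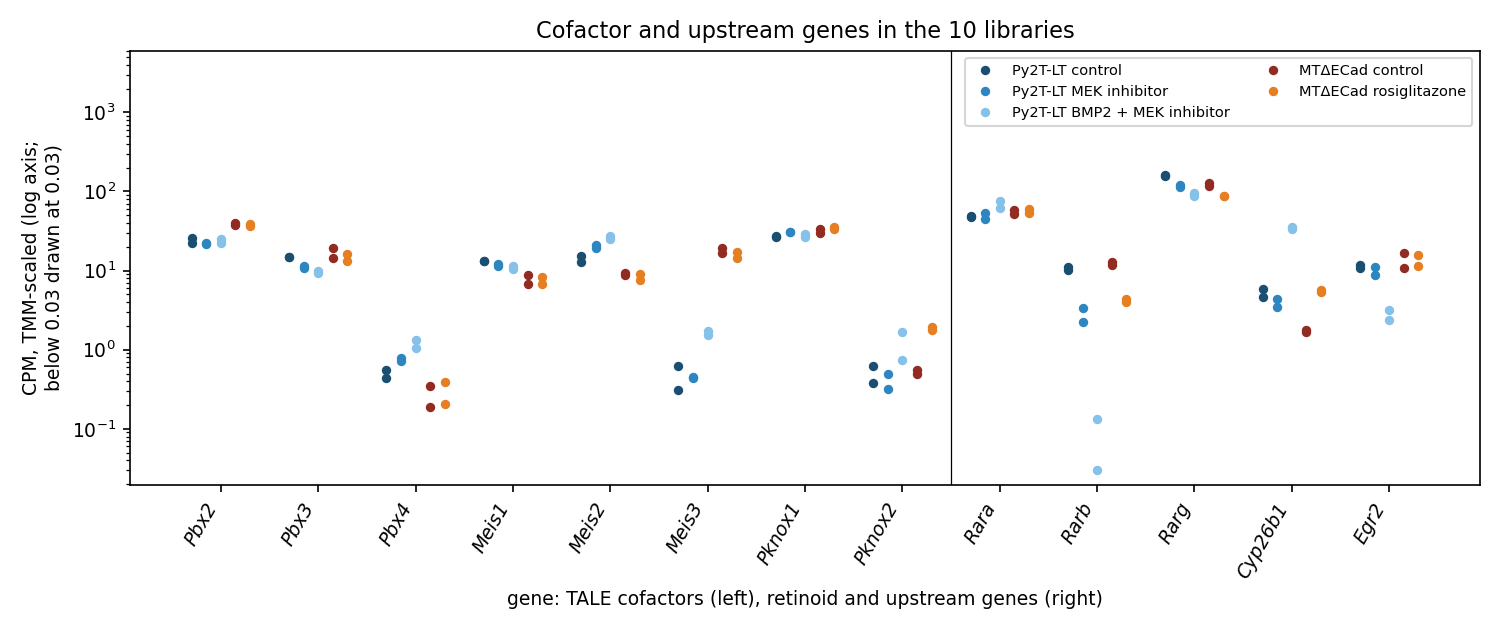
CPM (y, log axis) of 8 TALE cofactors and of 5 upstream genes (x) in the 10 libraries; each point is 1 library, coloured by group. Meis3 is high in the MTΔECad libraries, and Rarb falls while Cyp26b1 rises with BMP2 and the MEK inhibitor.

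Polycomb proteins keep silent Hox genes off through methylation of histone H3 at lysine 27, and Trithorax proteins keep active ones on. All 27 Polycomb genes listed were tested. Between the lines 4 were higher and 9 lower in MTΔECad cells (median log2 fold change -0.12), against 29.3% and 31.7% of all genes, and these counts were 5 and 7 without Py2T-LT control replicate 2. Phf19, which helps the repressive complex PRC2 bind chromatin, gave 122 and 120 counts in Py2T-LT controls and 0 in all 4 MTΔECad libraries, at least 37.9-fold lower (edgeR adjusted p = 4.8e-11). Like Lin28b, it passed the filter on low counts through the Py2T-LT libraries alone and had to differ, so nothing is read from its call. The count of 9 lower holds Phf19 and is a description. Cbx6 fell from 238 and 229 CPM to 115 and 99.6 CPM, by 1.12 ± 0.09 (SE) on the log2 scale (edgeR adjusted p = 6e-10). The catalytic subunit gene Ezh2 was not called between the lines, with 28.4 to 31.4 CPM in the 4 control libraries of both lines.

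With the combination against control, 5 Polycomb genes rose and 4 fell (6 and 3 without Py2T-LT control replicate 2), against 19.1% and 19.4% of all genes. Phf19 fell to 1.34 and 1.69 CPM, by 2.30 ± 0.23 (SE) on the log2 scale (edgeR adjusted p = 1.8e-07), and Jarid2, another PRC2 partner, rose from 18.7 and 19.8 to 49.5 and 49.8 CPM, by 1.36 ± 0.10 (SE) on the log2 scale (edgeR adjusted p = 1e-09). Against the MEK inhibitor 7 rose and 3 fell, with the MEK inhibitor alone 2 rose and 0 fell (0 and 0 without Py2T-LT control replicate 2), and with rosiglitazone 0 rose and 1 fell (Ezh2, not called once any 1 of the 4 MTΔECad libraries was left out). Of 14 Trithorax and H3K27 demethylase genes, 1 was higher (Men1) and 7 were lower in MTΔECad cells (median log2 fold change -0.48), and 4 were lower without Py2T-LT control replicate 2. Over all genes tested, 29.3% were higher and 31.7% lower between the lines. In the treatments 0 of 14 rose, while 2 fell with the combination in each of its comparisons and 0 fell in the others. Without Py2T-LT control replicate 2, 1 rose with the combination against control.

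Position is also carried by other transcription factor genes, such as T-box, LIM and paired-type homeobox genes. Of 31 listed, 25 were rows and 14 were tested. Between the lines 6 were higher and 7 lower in MTΔECad cells, against 29.3% and 31.7% of all genes. The median log2 fold change was -0.22. Pax9, Tbx3 and Isl1 are in these counts and passed the filter on low counts through the Py2T-LT libraries alone. The counts are therefore a description, and nothing is read from them against these shares. Without Py2T-LT control replicate 2, 6 were higher and 6 lower. Lhx2 gave 1 and 4 counts in Py2T-LT controls and 165 and 138 in MTΔECad controls, 64.4 times as much (95% counting interval 27.3 to 200.0; edgeR adjusted p = 2.1e-11). The Lhx2 counts in Py2T-LT controls were too low to pass the filter on low counts, so nothing is read from its call. Tbx18 went from 4.87 and 5.56 to 48.3 and 44.9 CPM, a log2 fold change of 3.16 ± 0.13 (SE; edgeR adjusted p = 2e-14). Tbx15 went from 2.90 and 2.62 to 13.1 and 14.96 CPM and was higher by 2.34 ± 0.18 (SE) on the log2 scale (edgeR adjusted p = 5.9e-10).

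In the other direction, Pax9, Tbx3 and Isl1 had no count in any MTΔECad library. They passed the filter on low counts through the Py2T-LT libraries alone, so nothing is read from their calls between the lines. Pax9, needed for pharyngeal pouch organs and teeth, gave 65 and 76 counts in Py2T-LT controls and was at least 22.1-fold lower (edgeR adjusted p = 3.5e-09). Tbx3, needed for the mammary bud, gave 22 and 72 counts in Py2T-LT controls (edgeR adjusted p = 0.0026), and was not called with only the compared groups fitted (adjusted p = 0.14). Isl1 gave 14 and 15 counts in Py2T-LT controls, at least 4.54-fold lower (edgeR adjusted p = 9.5e-05). Lhx9 gave 40 and 46 counts in Py2T-LT controls and 0 and 1 in MTΔECad controls, 81.0-fold lower (95% counting interval 14.1 to 3230; edgeR adjusted p = 4.2e-08), which rests on 1 count. The Lhx9 counts in MTΔECad controls were too low to pass the filter on low counts, so nothing is read from its call. The fitted log2 fold change of Lhx9 ranged from -8.4 to -5.25 over the 9 alternatives. Prrx2 had 6.10 and 4.81 CPM against 1.18 and 2.50 CPM, a log2 fold change of -1.54 ± 0.27 (SE; edgeR adjusted p = 6.6e-05).

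With the MEK inhibitor 5 genes of this list rose and 1 fell (3 and 1 without Py2T-LT control replicate 2), against 8.98% and 7.52% of all genes. Among the 5, Tbx18 and Lhx9 were each still called under 4 of 9 alternatives, and DESeq2 called neither. Prrx2 rose by 1.51 ± 0.20 (SE) with the inhibitor and by 2.35 ± 0.19 (SE) with the combination against control on the log2 scale (edgeR adjusted p = 1.3e-05 and 4.2e-09). With the combination 3 rose and 1 fell against control (2 and 1 without that library), and 3 rose and 5 fell against the MEK inhibitor. With rosiglitazone 0 rose and 1 fell.

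**Figure D5:**
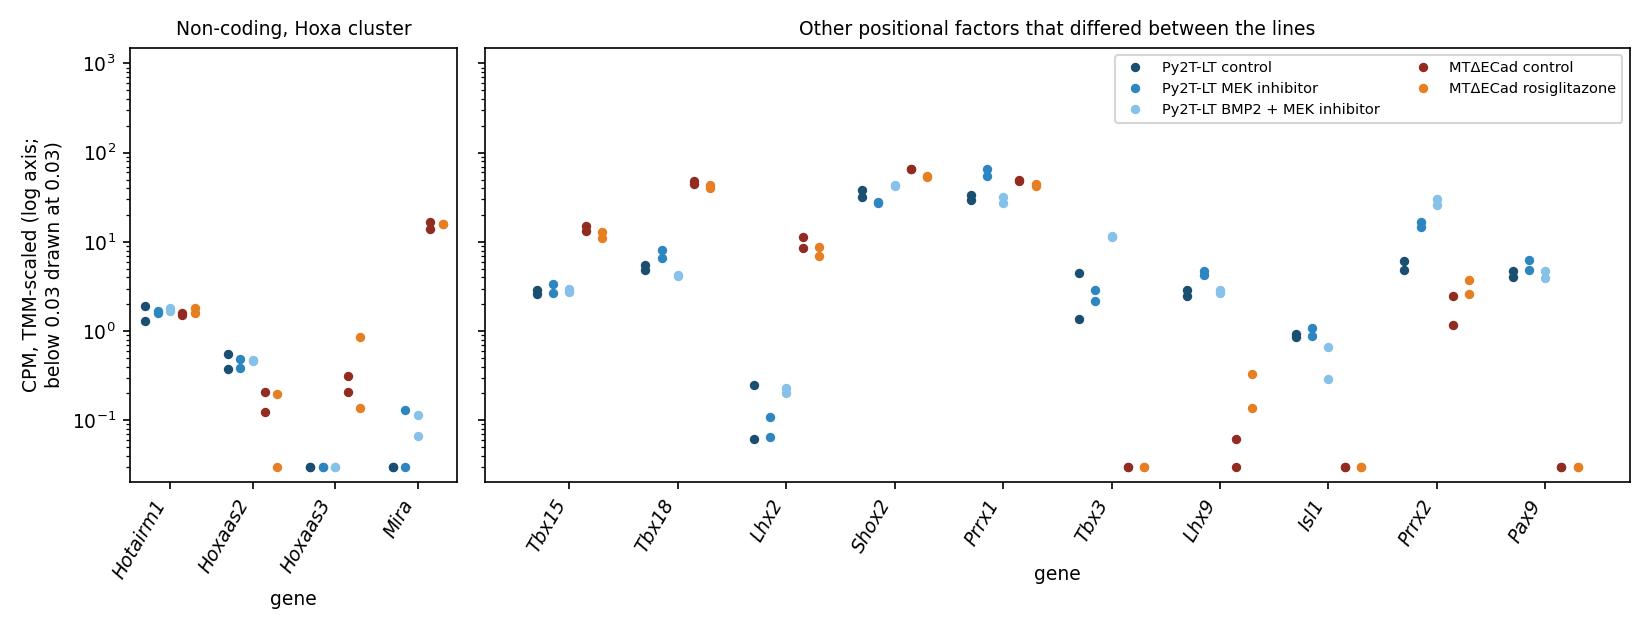
CPM (y, log axis) of 4 non-coding genes in the Hoxa cluster (left) and of 10 positional factor genes called between the lines (right) in the 10 libraries; each point is 1 library, coloured by group. Mira, Lhx2 and Tbx18 are higher in MTΔECad libraries, while Tbx3, Isl1 and Pax9 are at 0 there.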

How the data were processed

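RNA of 10 cultures was sequenced after library preparation with a stranded total RNA kit; the labels' protocols also name poly-A+ RNA. Reads were aligned with STAR to mm10, per the submitters' processing notes (the counting tool, strand setting and gene models: not given in the sources used here). The deposited table holds raw counts of reads for 18103 genes, listed by NCBI identifier, of which 46 had no RefSeq symbol (0.428% to 1.76% of counts).

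Counts were tested with edgeR 4.0.16 in R 4.3.3 (filterByExpr, TMM, robust quasi-likelihood fit of all 10 libraries, 1 mean per group, 5 residual degrees of freedom, Benjamini-Hochberg over 13149 genes, threshold 0.05; common biological variation 7.07%). DESeq2 1.42.0, RLE scaling, no filter, the compared groups alone, the replicate number as a block and each library left out were alternatives. RPKM used exon-union lengths from GENCODE M21. Ratios between few counts have exact binomial 95% intervals, which cover counting error only, and the floor is 3 counts per library. The fit was tested on simulated data.

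Some items are not reported here. The other Hox genes are all named. From other lists and cluster neighbours, called genes beyond 1 on the log2 scale, or else the 3 most changed, could be named. Names in brackets beside a count are all the genes it counts. Where a list count stands without a share, the share of all genes called in that comparison is given with the Hox genes. Skap2, Hibadh and Ezh2, and the smaller changes given for Meis2, were chosen after their values were seen. The members and lists were chosen with earlier results of these data known.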

Additional observations from a re-analysis of the deposited data

How the results depend on the processing

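The count of called Hox genes was the same under all 45 alternatives run: 6 between the lines and 0 in each treatment comparison, with any library left out (lowest and highest 6 between the lines, 0 and 0 elsewhere). None of 441 refits of single Hox genes crossed the threshold of 0.05. The paired fit with the replicate block also called 6 and 0. Deviations of libraries with equal replicate numbers correlated at -0.16 to 0.18 between groups, so no strong shared shift was seen. The labels give no pairing, and this check cannot exclude one. Over all genes, leaving out 1 library moved some counts by over 1.5 times. With the MEK inhibitor, 989 genes were lower with all libraries, 651 without Py2T-LT control replicate 2, 658 and 593 without MEK inhibitor replicates 1 and 2. Without Py2T-LT control replicate 1, 1012 were higher and 1158 lower, against 1181 and 989. With rosiglitazone, 691 genes were lower, and 353, 415 and 421 without MTΔECad control replicates 1 and 2 and rosiglitazone replicate 1. Of 152 calls of list and neighbouring genes, read under the same settings after seeing the data, 93 held under every alternative, 59 were lost under at least 1 and 0 changed sign. Of 630 list counts, 94 moved by over 1.5 times. The cause of these shifts was not tested. The level cut moved the number of Hox genes expressed in Py2T-LT controls, with 7 at 0.5 CPM and 4 at 2 CPM, against 5. Hoxa4 and Hoxa5 were the genes added at 0.5 CPM. Depth limits Hoxa2, Hoxa6 and Hoxa7 in Py2T-LT cells, where a fall was not detectable at 0 to 4 counts a library.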
